A study of Mus musculus with 24 samples.

Results

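Slamf1 encodes CD150, a surface receptor of the SLAM family, and lies in a cluster of SLAM genes on mouse chromosome 1. The subject here is the accessible chromatin of that cluster: all regions of the deposited ATAC-seq table between positions 171500000 and 172100000 of chromosome 1 (mm10), a window of 600 kb. The window held 6 of the 13910 regions, and 1 of them, chr1:171773271-171773506, lies inside Slamf1. The window and this region were chosen by its ATAC counts across subsets and recipients in an earlier reading of these data. The comparison that singled it out is not recorded, so its values are given in every comparison as a description, no p is printed for it, and its calls are only counted beside the share called among all regions.

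The libraries came from hematopoietic stem and progenitor cells of WT CD45.1 donors. Donor marrow was transplanted into young CD45.2 recipients, which were either WT or IκB–, and donor cells were recovered from femur and tibia 13 to 15 weeks later. The donor cells were therefore WT in every group, and only the recipient differed. The labels do not describe the genetic change of the IκB– line and do not say how many animals stand behind a sample. From each recipient type, 4 subsets were sorted at 500 to 1500 cells a sample, with 3 replicates in each of the 8 groups. All were Lin–, Sca1+ and cKit high. The protocol writes the stem cell (HSC) gate as Flt3–, CD150– and CD48–, that of the multipotent progenitors MPP2 as Flt3–, CD150+ and CD48+, and that of MPP3 as Flt3–, CD150– and CD48+. The MPP4 gate was Flt3+, with no use of CD150 or CD48. The usual scheme for mouse marrow defines stem cells as CD150+ and CD48–, and the groups are used here under their labels.

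SLAM receptors bind one another or each other's family members on neighbouring blood cells, and most are their own ligands. CD48 is the ligand of CD244, and both genes sit in this cluster. Inside the cell the receptors signal through small adaptors of the SAP family, the kinase Fyn and several phosphatases. In mouse marrow, CD150 and CD48 are sorting markers: together they separate stem cells from multipotent and more restricted progenitors. Accessibility in ATAC-seq is the rate at which the Tn5 transposase inserts into open chromatin. It is not a measure of mRNA or of surface protein.

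The sequences printed here are those of the SLAM genes whose promoter the reference covers and that bear on the regions of the window: the 250 bases before the start of Slamf1, where the table holds no region, and 196 of the 201 bases of the only region at the start of a SLAM gene, that of Cd244a. Both come from RefSeq (GRCm38.p6, the same assembly as mm10) and are written 5′ to 3′ on the plus strand, on which both genes lie. Capitals mark matches, on either strand, to 4 short motifs: GGAA is the core bound by ETS factors, AGATAA is that of GATA factors, TGTGGT is that of RUNX factors and CACGTG is an E-box.
Slamf1 upstream, chr1:171766882-171767131: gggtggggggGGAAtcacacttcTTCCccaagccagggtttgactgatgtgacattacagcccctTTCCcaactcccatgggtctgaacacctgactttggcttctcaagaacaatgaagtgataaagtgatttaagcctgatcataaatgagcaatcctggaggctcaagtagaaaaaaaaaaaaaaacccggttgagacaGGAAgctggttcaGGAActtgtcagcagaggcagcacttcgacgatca
Cd244a region, chr1:171558997-171559192: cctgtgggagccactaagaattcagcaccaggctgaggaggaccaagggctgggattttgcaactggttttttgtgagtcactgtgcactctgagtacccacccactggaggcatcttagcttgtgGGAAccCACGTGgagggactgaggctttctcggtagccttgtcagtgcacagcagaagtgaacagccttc
The Slamf1 stretch held 5 GGAA matches and none to the other 3 motifs. GGAA is common: 93.4% of the 32851 promoters of the reference held it in 250 bases. The Cd244a stretch held 1 GGAA match and 1 CACGTG match, which 88.5% and 5.17% of promoters held in 196 bases. A match says only that the letters are there.

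The 24 libraries held 121599 to 963699 counts each, a 7.93-fold range, and 7 had fewer than 200000. Mitochondrial regions took 1.4% to 12% of the counts. Replicates 2 and 3 of WT MPP3 agreed within sampling noise (chi-square of their counts per degree of freedom 1.005 over 13126 regions, against 1.44 and 1.58 for replicate 1) and were counted as 1 sample. This left 23 replicates, with n = 2 in the WT MPP3 group. Values are given as CPM, counts per 1000000 after TMM scaling of the library sizes, as mean ± SD. As the labels do not say that replicates came from separate animals, p-values measure only the spread between these samples. Differences in CPM cannot tell fewer cells with an open region from less opening per cell.

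In the window, 14 protein-coding genes were annotated, 7 of them SLAM genes: Cd244a, Ly9, Slamf7, Cd48, Slamf1, Cd84 and Slamf6. The regions were few and small. The first lay at the start of Alyref2 (171503223 to 171503731, mean 59.5 CPM), a gene for an mRNA export factor. The second lay at the start of Cd244a (171558997 to 171559197, 18.8 CPM), the receptor for CD48. The third lay between Ly9 and Slamf7, 11747 bp from Ly9 (171619157 to 171619325, 16.5 CPM). The fourth lay inside Slamf1, 6139 bp downstream of its start and 27678 bp before its end (14.7 CPM). The fifth lay inside Cd84, a self-binding SLAM receptor, 9868 bp from its start (171849565 to 171849823, 44.2 CPM). The sixth lay at the starts of Copa, a coat protein of transport vesicles, and Ncstn, a subunit of gamma-secretase (172082520 to 172082925, 54.5 CPM). These 2 genes lie on opposite strands and overlap at their starts. The annotation used has no exons, so positions within a gene body are not assigned to exon or intron. No region lay within Cd48, Ly9, Slamf7 or Slamf6, and the region nearest to the start of Cd48, the other SLAM marker of the gates, was 62667 bp away. The accessibility of Cd48 could therefore not be described.

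**Figure D1:**
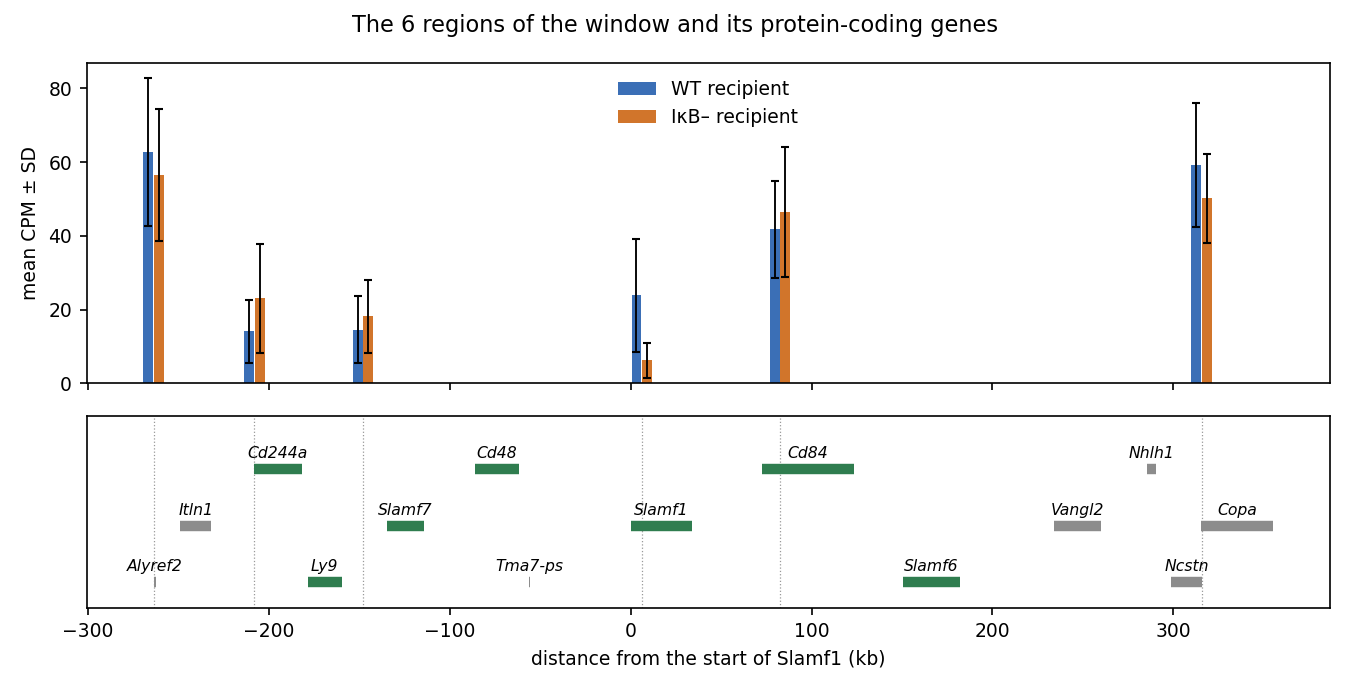
Mean CPM (bars) with SD (error bars) of the 6 regions in WT (blue, n = 11) and IκB– (orange, n = 12) recipients, plotted by distance in kb from the start of Slamf1, above the 14 protein-coding genes of the window. SLAM genes are green, other genes grey, and dotted lines mark the regions. The Slamf1 region stood at 23.8 CPM in WT and 6.33 CPM in IκB– recipients.

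The Slamf1 region was weak. Only 1.29% of all regions had a lower mean CPM, and per kb of region only 1.24% had a lower one. It collected 93 counts over the 24 libraries, with 0 counts in 2 of them and at most 3 counts in 14. In WT recipients, the 3 HSC libraries held 5, 14 and 4 counts. The MPP2 libraries held 11, 13 and 4, the MPP3 libraries 2, 3 and 3, and the MPP4 libraries 5, 6 and 1. In IκB– recipients, the HSC libraries held 2, 1 and 2 counts and the MPP2 libraries 6, 1 and 5. The MPP3 libraries held 2, 0 and 0 and the MPP4 libraries 1 each. The highest counts, 11 to 14, thus lay in HSC and MPP2 of WT recipients, while MPP4 of WT and MPP2 of IκB– recipients both summed to 12. The libraries differed in depth: the deepest, IκB– MPP3 replicate 1 with 963699 counts, held 2 counts in the region, and WT HSC replicate 2 held 14 of 255584. The 2 libraries at 0 allow up to 7.03 and 8.11 CPM, on a floor of 3 counts per library. Such floors, and the intervals on counts, cover only the error of counting, as amplified copies of 1 molecule are not independent.

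**Figure D2:**
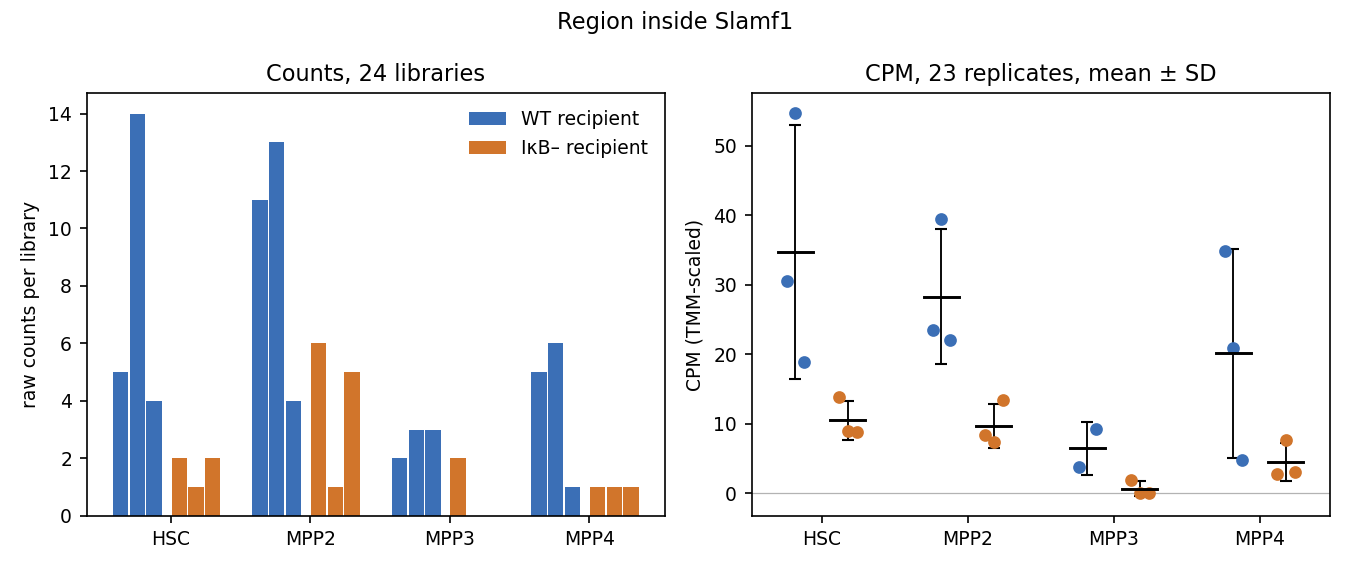
The region inside Slamf1. Left, raw counts in each of the 24 libraries, 3 per group in the order of their numbers. Right, CPM of each of the 23 replicates (points) with the group mean (thick line) and SD (error bars); WT recipients are blue and IκB– recipients orange. Every HSC, MPP2 and MPP3 replicate of IκB– recipients lay below those of WT recipients, and MPP3 was the lowest subset in both.

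On the CPM scale, the subsets stood in the same order in both recipient types. In WT recipients the region had 34.7 ± 18.3 CPM in HSC (n = 3), 28.3 ± 9.67 in MPP2 (n = 3), 20.1 ± 15.0 in MPP4 (n = 3) and 6.49 ± 3.81 in MPP3 (n = 2). In IκB– recipients it had 10.5 ± 2.81 CPM in HSC, 9.68 ± 3.22 in MPP2, 4.47 ± 2.72 in MPP4 and 0.638 ± 1.10 in MPP3 (n = 3 each). Neighbours in this order overlapped in every case except MPP4 and MPP3 of IκB– recipients, at 2.72 to 7.60 against 0 to 1.91 CPM. That step rests on 1 count in each MPP4 library against 2, 0 and 0 counts in MPP3. The MPP3 libraries at 0 allow up to 7.03 and 8.11 CPM, so the step is not resolved. HSC and MPP2 overlapped in both recipient types. The fitted log2 difference of MPP2 from HSC was -0.19 ± 0.56 (SE; 95% interval -1.38 to 0.99), which leaves room for a difference of either sign.

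MPP2 and MPP3 differ in the protocol by CD150 alone, the protein that Slamf1 encodes. A difference between them at Slamf1 can therefore not be told apart from how the cells were chosen, and is not read as a finding about the subsets. The size of that difference is of interest as a description. MPP2 replicates ran from 22.0 to 39.4 CPM in WT recipients against 3.79 and 9.18 for MPP3, and from 7.34 to 13.3 CPM in IκB– recipients against 0 to 1.91. They did not overlap within either recipient type, for which the share among all regions was not counted. They did overlap when recipients were pooled, where MPP2 lay above MPP3 without overlap in 3.38% of all tested regions. From summed counts, the ratio of MPP2 to MPP3 was 4.21 in WT recipients (28 against 8 counts, exact 95% interval 1.87 to 10.7) and 8.98 in IκB– recipients (12 against 2 counts, 2.0 to 82.6). No MPP3 library held more than 3 counts, so both ratios rest on counts at or under the floor. The fitted log2 difference was 2.44 ± 0.61, and with counts this low it depends on the prior count of the fit.

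HSC and MPP3 are both written as CD150– in the protocol and differ in CD48. Even so, the Slamf1 region stood higher in HSC than in MPP3 in both recipient types, at 18.9 to 54.7 against 3.79 and 9.18 CPM in WT recipients and 8.87 to 13.8 against 0 to 1.91 CPM in IκB– recipients. The ratio of summed counts over both recipients was 7.60 (28 against 10 counts, 3.58 to 17.5), and the fitted log2 difference of MPP3 from HSC was -2.64 ± 0.71. The regions of the megakaryocyte genes Pf4 and Gp1ba summed to 63.5 ± 23.2 CPM in HSC (n = 6) and 30.2 ± 13.6 CPM in MPP3 (n = 5). The replicates overlapped, at 31.1 to 89.3 against 18.7 to 50.5 CPM. With the Csf1r and Klf1 regions added, the sums were 84.3 to 170 against 86.6 to 150 CPM. Of these 4 regions, 0 had an adjusted p under 0.05 for this pair (edgeR quasi-likelihood test), against 2.57% of all tested regions. The part of these genes in the Slamf1 difference was not tested, and Pf4 and Gp1ba entered the fit through 0 replicates of MPP3. At the Slamf1 region, the group with the HSC label was thus closer to the CD150+ MPP2 than to the CD150– MPP3. Whether the written HSC gate is the one used cannot be read from these data.

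The protocol gives the same gates for both recipient types. The region had 23.8 ± 15.4 CPM over the 11 replicates of WT recipients, with a range of 3.79 to 54.7, and 6.33 ± 4.75 CPM over the 12 of IκB– recipients, with a range of 0 to 13.8. Within HSC, the WT values of 30.6, 54.7 and 18.9 CPM all lay above the IκB– values of 13.8, 8.93 and 8.87. Within MPP2, 23.4, 39.4 and 22.0 CPM lay above 8.34, 7.34 and 13.3. In MPP4 the groups overlapped: 34.8, 20.9 and 4.77 CPM stood against 2.72, 7.60 and 3.08. In MPP3 the WT values again lay above the others, but no library of either group exceeded 3 counts, and no fold is given.

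From summed counts, the region was higher in WT recipients by a ratio of 3.52 in HSC (23 against 5 counts, exact 95% interval 1.31 to 11.8), 2.92 in MPP2 (28 against 12 counts, 1.44 to 6.31) and 5.14 in MPP4 (12 against 3 counts, 1.39 to 28.4). Over all 4 subsets, MPP3 included, the ratio was 4.11 (71 against 22 counts, 2.52 to 6.97), with no adjustment for the differing depth of the subsets. These intervals leave out the spread between replicates, which the fit includes. There the log2 difference of IκB– from WT was -1.74 ± 0.81 in HSC, -1.50 ± 0.67 in MPP2 and -2.25 ± 0.96 in MPP4. As the mean over the subsets it was -1.95 ± 0.44, which takes in MPP3, where no library exceeded 3 counts. The region's share of all counts in the window was 15.4% in WT HSC, 13.4% in WT MPP2, 3.74% in WT MPP3 and 8.96% in WT MPP4. In IκB– recipients the shares were 4.72%, 5.97%, 0.514% and 1.67% in the same order. The window as a whole stood at 216 ± 44.6 CPM in WT (n = 11) and 201 ± 40.8 CPM in IκB– recipients (n = 12).

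The region entered the fit by a narrow margin. The filter on low counts asked for 35.2 CPM, before TMM scaling, in at least 2 replicates, and the Slamf1 region reached it in exactly 2, WT HSC replicate 2 and WT MPP2 replicate 2. It passed only through groups in which it is high. The Cd244a region passed through 3 replicates, all from IκB– recipients, and the Alyref2, Cd84 and Copa/Ncstn regions through 22, 16 and 21. The region between Ly9 and Slamf7 reached the level in 1 replicate and was not tested. So 5 of the 6 regions were tested, among 13325 in all.

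Of the 5 tested regions, the one inside Slamf1 had an adjusted p under 0.05 (called, here and below; edgeR quasi-likelihood test, Benjamini-Hochberg over all tested regions) for MPP2 against MPP3, where 8.14% of all tested regions were called. It was also called for MPP3 against HSC (2.57% of all regions), in the joint test over the subsets (7.18%) and for the mean recipient effect (1.73%). Nothing is read from these calls, since the region was chosen with such results known. No member was called for MPP2 against HSC (0.03% of all regions), MPP4 against HSC (1.27%), MPP4 against MPP2 (3.38%) or MPP4 against MPP3 (0.0%), and none had an unadjusted p under 0.05 there. No member was called for the recipient effect within HSC (0.0%), MPP2 (0.0%), MPP3 (0.21%) or MPP4 (0.045%), or for its difference between subsets (0.0%). At an unadjusted p under 0.05 these 5 tests held 1, 1, 2, 1 and 1 members, against 6.31%, 3.65%, 9.52%, 7.1% and 4.05% of all tested regions. In HSC, MPP2 and MPP4 this was the Slamf1 region alone, in MPP3 it was the Slamf1 and Copa/Ncstn regions, and in the last test Copa/Ncstn. As the Slamf1 region was chosen by these counts, nothing is read from these numbers. DESeq2 and limma-voom called no member in any of these 9 comparisons either. The call for MPP3 against HSC was lost (0 members) without WT HSC replicate 2, WT MPP3 replicate 1, or replicate 1 or 2 of IκB– HSC, or replicate 2 or 3 of IκB– MPP3. The call over the subsets was lost (0 members) without WT MPP3 replicate 1, and that for the recipients (0 members) without the combined WT MPP3 replicate 2 and 3. Without WT MPP2 replicate 2 the filter dropped the region.

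Among the 393 tested regions with a mean under 20 CPM, the median log2 difference of MPP2 from MPP3 was -0.42, against -0.02 over all tested regions, and that of MPP3 from HSC was 0.32 against -0.02. For the recipients the median was 0.04 in the low regions and 0.00 over all. Of these low regions 24.2% were called for MPP2 against MPP3, 4.83% for MPP3 against HSC and 2.04% for the mean recipient effect, against 8.14%, 2.57% and 1.73% over all tested regions.

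The Cd244a region, at the promoter of the CD48 receptor, had a higher mean in IκB– recipients. In WT recipients its counts were 2, 1 and 4 in HSC, 4, 4 and 2 in MPP2, 7, 7 and 5 in MPP3, and 5, 5 and 1 in MPP4. In IκB– recipients they were 1, 5 and 5 in HSC, 5, 2 and 8 in MPP2, 38, 10 and 12 in MPP3, and 17, 0 and 7 in MPP4. The library at 0 allows up to 22.8 CPM. The region passed the filter only through replicates of IκB– recipients, and through none of MPP2, so its differences between recipients and between MPP2 and MPP3 are a description. The mean was 14.1 ± 8.48 CPM in WT (n = 11) and 23.1 ± 14.8 CPM in IκB– recipients (n = 12). The groups overlapped in HSC, MPP2 and MPP4. In MPP3, IκB– values (30.8 ± 6.63 CPM, n = 3) all lay above WT values (15.8 ± 3.60 CPM, n = 2). The mean recipient difference was 0.73 ± 0.37 on the log2 scale, and in MPP3 it was 0.96 ± 0.60. Between subsets, MPP2 stood at 12.4 ± 5.14 CPM (n = 6) and MPP3 at 24.8 ± 9.60 CPM (n = 5), with a log2 difference of -0.93 ± 0.48.

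**Figure D3:**
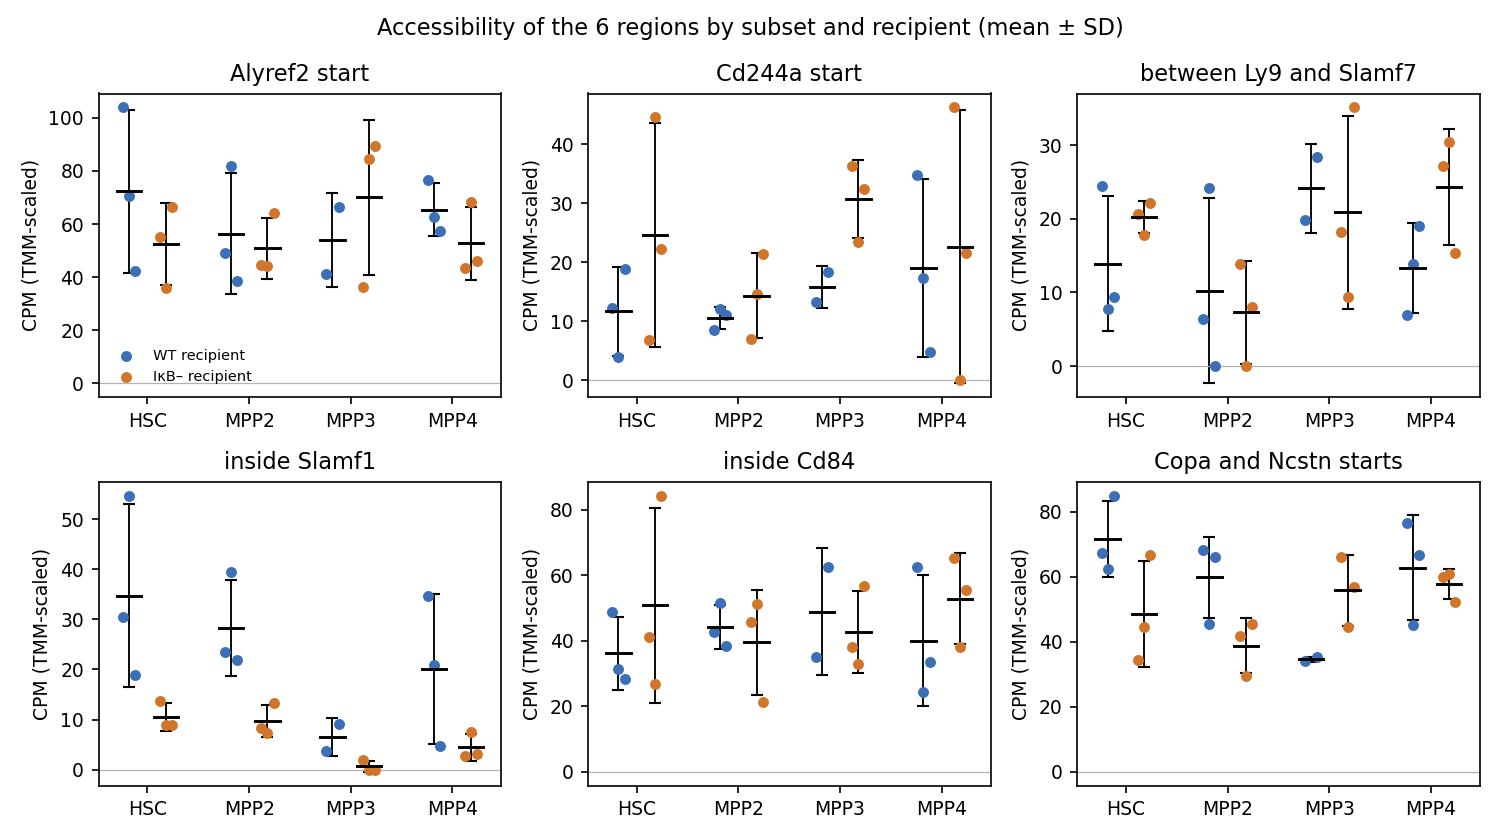
CPM of the 6 regions in every replicate (points), with the group mean (thick line) and SD (error bars), by subset and recipient (WT blue, IκB– orange). The vertical scales differ between panels. WT values lay above IκB– values in HSC, MPP2 and MPP3 in the Slamf1 panel, and IκB– values lay above WT values in MPP3 in the Cd244a and Copa/Ncstn panels.

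The region inside Cd84, the nearest to that of Slamf1, was stronger, and its groups stood close to each other. It had 343 counts, with group means between 36.2 ± 11.1 CPM (WT HSC) and 52.9 ± 13.8 CPM (IκB– MPP4). The single replicates ran from 21.4 to 84.3 CPM, and the groups overlapped within every subset. The mean recipient difference was 0.21 ± 0.22 (95% interval -0.25 to 0.66) and the difference of MPP2 from MPP3 was -0.11 ± 0.28 (-0.71 to 0.48), both on the log2 scale. Its lowest edgeR adjusted p over the 13 tests was 0.728.

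The untested region between Ly9 and Slamf7 held 134 counts, with 0 in WT MPP2 replicate 3 and in IκB– MPP2 replicate 2, which allow up to 16.5 and 22.0 CPM. Ly9 and Slamf7 encode self-binding SLAM receptors of lymphoid cells. The region had 8.76 ± 9.23 CPM in MPP2 (n = 6), 17.1 ± 6.90 in HSC (n = 6), 18.8 ± 8.73 in MPP4 (n = 6) and 22.2 ± 9.91 in MPP3 (n = 5). Replicates ran from 0 to 35.2 CPM, and all subsets overlapped. WT and IκB– recipients stood at 14.6 ± 9.18 and 18.2 ± 9.90 CPM.

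At the edges of the window the regions belong to genes outside the SLAM family. The Alyref2 region had a mean of 62.7 CPM in WT (38.5 to 104) and 56.5 CPM in IκB– recipients (35.7 to 89.3), with a log2 difference of -0.15 ± 0.20 and a lowest edgeR adjusted p over the 13 tests of 0.794. The Copa/Ncstn region had 59.3 ± 16.8 and 50.2 ± 12.1 CPM, with a mean recipient difference of -0.10 ± 0.17. Within subsets it moved both ways. In MPP2, the WT values of 68.1, 45.5 and 66.0 CPM lay above the IκB– values of 41.7, 29.4 and 45.4. In MPP3, the WT values of 34.1 and 35.2 CPM lay below the IκB– values of 66.0, 44.5 and 56.8. The log2 difference was -0.54 ± 0.33 in MPP2 (edgeR adjusted p = 0.999) and 0.71 ± 0.33 in MPP3 (edgeR adjusted p = 0.462), and neither passed the test.

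Groups without overlap were not rare among all regions. WT lay above IκB– without overlap in 4.4% of the tested regions in HSC, where 1 of the 5 members did so (Slamf1). This held for 5.6% of regions in MPP2 (2 members, Slamf1 and Copa/Ncstn) and 15.7% in MPP3, where WT has n = 2 (1 member, Slamf1). IκB– lay above WT without overlap in 12.5% of regions in MPP3 (2 members, Cd244a and Copa/Ncstn).

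**Figure D4:**
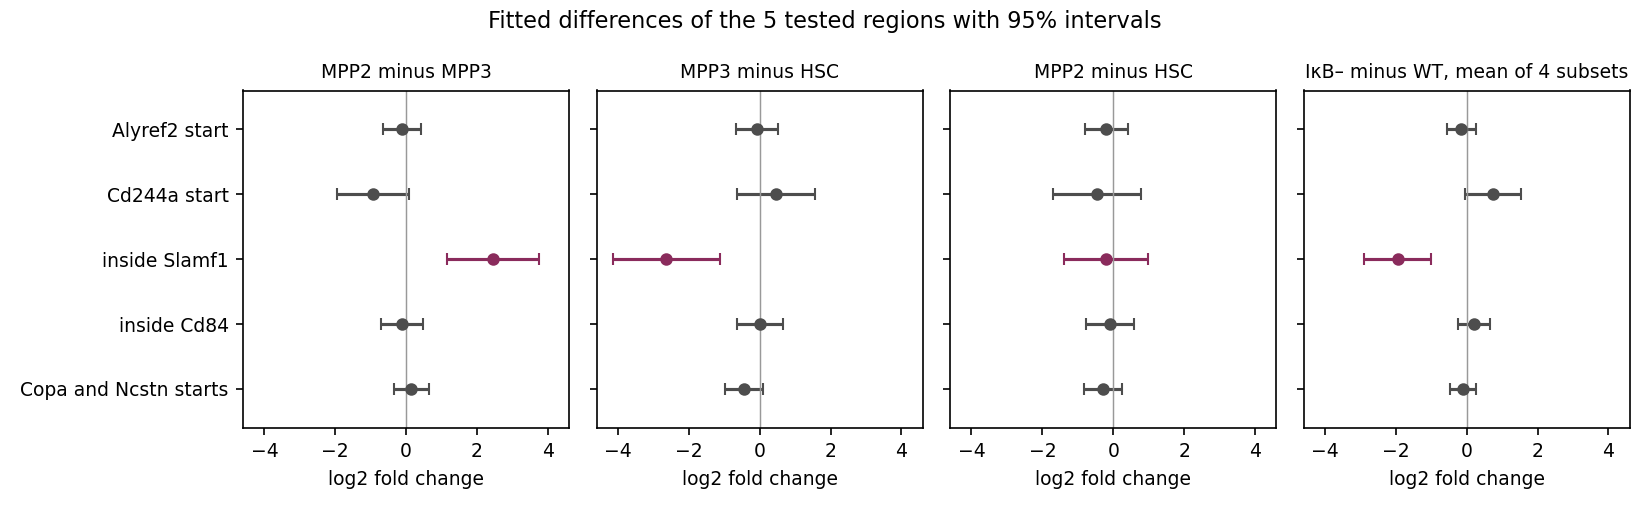
Fitted log2 differences (points) with 95% intervals (bars) of the 5 tested regions in 4 comparisons; the Slamf1 region is in colour and the other 4 in grey. The Slamf1 region stood at 2.44, -2.64, -0.19 and -1.95 in the order of the panels, and every interval of the other regions included 0.

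The Slamf1 region was set against the 4 other tested regions of the window. Over the 23 replicates, Pearson's r of its log2 CPM (prior count 2) was 0.19 with the Alyref2 region, -0.34 with Cd244a, -0.18 with Cd84 and 0.25 with Copa/Ncstn. By rank, Spearman's rho came to 0.15 for Alyref2, -0.41 for Cd244a, -0.20 for Cd84 and 0.32 for Copa/Ncstn. The 5 tested regions outside the window most like it over the same replicates had r between 0.848 and 0.884 and Spearman's rho between 0.840 and 0.892. They were chr11:24226720-24227070, outside genes (r = 0.884), chr5:111267166-111267413, inside Ttc28 (0.860), chr1:130300107-130300354, outside genes (0.851), a region on chromosome 18, 5670 bp from Rnf125 (0.849), and chr1:137148039-137148359, outside genes (0.848). All 5 had their lowest level in MPP3 of IκB– recipients, at 2.98 to 11.5 CPM. These correlations describe libraries that share depth and sorting. They are the highest of all regions and carry no test.

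The genes through which SLAM receptors signal were looked up as a list of 13, with 16 regions in or within 1 kb of 8 of them and 15 regions tested. None lay at Sh2d1a, Sh2d1b1 or Sh2d1b2, which encode the SAP adaptors, or at Slamf8 or Slamf9. For MPP2 against MPP3, 1 region of the list was higher and 1 lower, where 6.27% of all tested regions were higher and 1.88% lower, with a list median of 0.01 on the log2 scale against -0.02 over all regions. The higher one was chr2:11226592-11226829 inside Prkcq, the protein kinase C theta that acts downstream of Slamf1 in T cells. It stood at 40.6 ± 6.04 CPM in MPP2 (n = 6), 34.8 to 51.1, and at 7.13 ± 3.92 CPM in MPP3 (n = 5), 2.70 to 11.4. The log2 difference was 2.47 ± 0.43. The region passed the low-count filter through 10 replicates, 0 of them from MPP3, so its differences from MPP3 are given as a description. Prkcq was not among the markers of the gates.

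The lower region was chr1:87640450-87640722 at Inpp5d, the inositol phosphatase SHIP1 that SLAM receptors recruit. It had 22.3 ± 9.16 CPM in MPP2 (n = 6) and 45.8 ± 11.8 CPM in MPP3 (n = 5), with a log2 difference of -1.08 ± 0.33. It passed the filter through 5 replicates of MPP3 and 5 of MPP4 and 0 of HSC or MPP2, so its differences between these pairs of subsets are likewise a description. For MPP3 against HSC (0.638% of all regions higher, 1.94% lower) the same regions were called, Inpp5d at 1.57 ± 0.41 and Prkcq at -1.99 ± 0.52. The 1 call of the list in MPP4 against HSC and in MPP4 against MPP2, where 0.833% and 1.44% of all regions were higher, was this Inpp5d region, higher in MPP4 by 1.71 ± 0.43 and 1.23 ± 0.35.

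Between recipients, 1 region of the list was higher and 1 lower in IκB– recipients, against 0.608% and 1.13% of all tested regions, with a list median of 0.04 against 0.00 over all regions. The Prkcq region had 36.8 ± 20.7 CPM in WT (n = 11) and 18.5 ± 17.5 CPM in IκB– recipients (n = 12), a mean difference of -1.26 ± 0.34 (edgeR adjusted p = 0.0413). Another region at Inpp5d, chr1:87650755-87651044, had 15.7 ± 5.72 CPM in WT, 9.09 to 24.5, and 49.8 ± 19.8 CPM in IκB– recipients, 19.5 to 83.2. The mean difference was 1.55 ± 0.27. It passed the filter through 8 replicates of IκB– and 0 of WT recipients, so this difference is a description too. The other regions of the list, among them those of Fyn, Ptpn6 and Ptpn11, were not called in the mean recipient comparison.

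The markers of the gates other than CD150 were checked as far as regions allow. Kit had 2 regions, Flt3 had 3 and Ptprc, which encodes CD45, had 1. Ly6a, which encodes Sca1, and Cd48 had none. The Flt3 region chr5:147366418-147366731 was called in the joint test over the subsets (edgeR adjusted p = 0.0435), in which 7.18% of all regions were called. It had 61.8 ± 16.4 CPM in MPP4 (n = 6), the Flt3+ subset, and 28.6 ± 9.05 CPM in HSC (n = 6), a log2 difference of 1.15 ± 0.32 that was not called (edgeR adjusted p = 0.0531). The other 2 Flt3 regions and those of Kit and Ptprc were not called in any comparison. Of the stem cell surface genes, Cd34, Itga2b and Cd9 had 6 regions, with 0 called in any comparison, and Procr had none; at an unadjusted p under 0.05, the edgeR test of the mean recipient effect held 1 of them, at Itga2b, and 14.3% of all regions.

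Of 13 marker genes of other cells, 4 had a region: Csf1r (monocytes), Klf1 (erythroid cells), and Pf4 and Gp1ba (megakaryocytes). Those of T, B and NK cells and of granulocytes had none. The summed level of the 4 regions ran from 62.6 to 209 CPM over all replicates. Between MPP2 and MPP3, 2 of the 4 regions were called, both higher in MPP2 as the Slamf1 region was, where 6.27% of all regions were higher. These were the megakaryocyte genes. Pf4 had 50.1 ± 18.6 CPM in MPP2 and 20.8 ± 5.64 CPM in MPP3, a log2 difference of 1.29 ± 0.34, and Gp1ba had 24.6 ± 14.2 and 9.33 ± 8.98 CPM, a difference of 1.51 ± 0.45. Pf4 passed the filter through 8 replicates and Gp1ba through 2, 0 of them from MPP3, so nothing is read from these calls. For MPP4 against MPP2 the 1 call was Pf4, lower in MPP4 by a log2 difference of -1.43 ± 0.39 (edgeR adjusted p = 0.0263; 1.94% of all regions lower). Their sum ran from 44.0 to 130 CPM in MPP2 and from 18.7 to 50.5 CPM in MPP3. Between recipients, 0 of the 4 regions were called and none had an unadjusted p under 0.05 in the edgeR test of the mean effect. The sum of the megakaryocyte regions was 42.4 to 85.6 CPM in HSC of WT and 31.1 to 89.3 CPM in HSC of IκB– recipients, and the recipients also overlapped in MPP2 (51.1 to 130 against 44.0 to 84.8 CPM) and MPP4 (13.9 to 48.7 against 18.5 to 45.6 CPM). In MPP3 it was 37.9 to 50.5 CPM in WT (n = 2) and 18.7 to 22.0 CPM in IκB– recipients, without overlap and in the direction of the Slamf1 region. Among all tested regions, 15.7% had WT above IκB– without overlap in MPP3. The sum of all 4 marker regions overlapped there, at 104 to 150 CPM in WT and 86.6 to 115 CPM in IκB– recipients. The part of these genes in the Slamf1 values was not tested.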

How the data were processed

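Chromatin accessibility was measured by ATAC-seq in 24 libraries of 8 groups. The values are raw counts per region and library, as deposited by the authors, in 1 table of 13910 regions. The submitters' processing notes name Bowtie2, SAMtools, Picard, MACS2 2.1.0, deepTools and the build mm10, without their role. The counting tool, the transposase offset and the treatment of duplicates are not given in the sources used here. Groups and replicate numbers came from the titles, and table columns were matched to titles by name.

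Counts were analysed in R 4.3.3 with edgeR 4.0.16: TMM scaling, filterByExpr with the groups given (13325 regions kept), 1 mean per group, robust quasi-likelihood dispersions (15 residual degrees of freedom), and 13 contrasts with Benjamini-Hochberg adjustment over all tested regions. Calls are regions whose adjusted p was under 0.05. The method was tested on simulated data. Libraries held 121599 to 963699 counts, and in all but 1 of the 24 replicate pairs within groups counts varied beyond sampling (chi-square up to 4.12 per degree of freedom). Gene names and promoter sequences came from RefSeq (GRCm38.p6).

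The members and the gene lists were chosen with earlier results of these data known. Every region of the window is accounted for. Regions in or nearest Slamf1 or Cd48, and others of the window that were called, were to be given in full, together with the 5 regions outside the window most like that of Slamf1. Regions outside the window were counted for 4 fixed lists (SLAM partners, gate genes, stem cell surface genes and markers of other cells). The alternatives were DESeq2 1.42.0 and limma 3.58.1 tests, other scalings and filters, a replicate block and leaving out each replicate.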

Additional observations from a re-analysis of the deposited data

Results flagged for a closer look

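At the Copa/Ncstn region, the recipient effect had opposite signs in a pair of subsets, with no overlap between recipients in either. The log2 difference of IκB– from WT was 0.71 ± 0.33 in MPP3 and -0.54 ± 0.33 in MPP2. The joint test of whether the recipient effect differed between subsets gave an unadjusted p of 0.0404 and an adjusted p of 0.999 (edgeR quasi-likelihood test), so the difference did not pass the correction.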

How the results depend on the processing

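For the Slamf1 region the log2 differences kept their sign in the 33 of 37 alternative settings that tested it, at 2.21 to 3.33 for MPP2 against MPP3, -3.52 to -2.35 for MPP3 against HSC and -2.40 to -1.67 for the mean recipient effect. The other 4 settings dropped it at the filter and are left out of its counts of calls. The region was chosen by these same counts and passed the filter only through groups in which it is high. A stable sign or call is therefore no support for these differences. The number of window regions called was 1 for MPP2 against MPP3 in each of those 33. Settings chosen after seeing the data lowered it: with libraries under 200000 counts left out, it was 0 for MPP3 against HSC, and with the WT libraries numbered 2 left out and no filter it was 0 for MPP3 against HSC, 0 over the subsets and 0 for the recipients (log2 difference -1.67). When single replicates were left out it was 0 to 1 for each of these 3. The cause was not tested. Signs of small differences turned at Alyref2 for MPP2 against MPP3 (0.022 with limma-voom; -0.34 to 0.0496 with single replicates left out), Cd84 for the same pair (-0.315 to 0.096), Slamf1 for MPP2 against HSC (-0.347 to 0.0838) and Copa/Ncstn for the mean recipient effect (0.0524 without libraries under 200000 counts). Counts over all regions moved more: for MPP2 against HSC from 4 to between 0 and 567, the 567 without libraries under 200000 counts and 21 without IκB– HSC replicate 1; from 1085 to between 78 and 2412 for MPP2 against MPP3, from 343 to between 23 and 858 for MPP3 against HSC, from 957 to between 59 and 2091 over the subsets and from 231 to between 8 and 548 for the recipients.

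Samples with the same number deviated together in part, with a correlation of deviations of -0.05 to 0.41 over 84 pairs (mean 0.14, 52 above 0.1). Between other numbers the mean was -0.07, a value tied to the first, as deviations from a group mean cancel within the group. Of the subset pairs within a recipient type, 27 of 36 were above 0.1. Among the 3 samples of each other group, a sample correlated best with its own number in 145 of 168 cases. This held in every other group for 9 of 24 samples. Among the comparisons, every pair was above 0.1 only for the recipients in HSC. There edgeR called 0 regions with the block and without it (24 libraries apart, with 1073 and 867 at an unadjusted p under 0.05). The labels give no shared origin for samples of the same number in any group, and the main fit did not take the numbers as pairs. With the replicate block, 24 libraries apart and no filter, the Slamf1 differences were 2.41 for MPP2 against MPP3, -2.60 for MPP3 against HSC and -1.84 for the recipients, and the number of window regions called was again 1 in each; over all regions the block with the filter called 2192 for MPP2 against MPP3, 481 for the mean recipient effect and 357 for the recipients in MPP3, where 28 were called without it (80 with the 24 libraries apart).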
